A study of Mus musculus with 24 samples.

Results

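Mouse peritoneal metastases given propionate and butyrate together were set against metastases given butyrate alone, which asks what propionate added where butyrate was already present. The comparison held 11 of the 24 RNA sequencing libraries of the study, 5 of the combination group and 6 of the butyrate group. Combination replicate 5 was left out, a choice made on measured values, and the 11 libraries were thus selected on B cell, T cell and muscle genes. It held 275 TPM of the B cell gene Cd79a, 68.8 TPM of the T cell gene Cd3e and 67.3 TPM of Cd8a. TPM is transcript abundance scaled to gene length and to a fixed total per library. In the 5 combination libraries kept, Cd79a was at 0.14 to 3.27 TPM, Cd3e at 0.63 to 7.07 TPM and Cd8a at 0.04 to 3.17 TPM. The mean log2(TPM + 1) over skeletal muscle genes, called a list score, was 1.32 in the library left out, 9.74 to 10.9 in the other combination libraries and 10.4 to 11.01 in butyrate libraries. Lymphocyte and skeletal muscle genes stayed in the fit and in the counts over all genes. Their own differences are described here and not taken as tests.

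The study had combination, propionate, butyrate and control groups with 6 samples each, all labelled peritoneum, with control marked as untreated. Its title names mannose, anti-PD-1 therapy, ovarian cancer and a gut microbial metabolite. The labels used here give no dose, duration, route, tumour line, mouse strain, sex or age. They also do not say that replicates came from separate animals, so a p-value here speaks of the spread among the libraries, part of which may be technical.

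Gut bacteria release propionate and butyrate, both short-chain fatty acids, when they ferment fibre. Cells sense them through receptors such as FFAR2 and HCAR2, take them up with monocarboxylate carriers and oxidise them in mitochondria, and butyrate also inhibits zinc-dependent histone deacetylases. Interferon gamma, a cytokine of T and natural killer cells, acts in part through IRF1 to induce immunity GTPases, the inducible proteasome subunits and the MHC class I pathway, which displays peptides to CD8 T cells.

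The pieces were mixed tissue. Skeletal muscle transcripts were abundant in all 11 libraries, with 10571 to 22685 TPM of Acta1, skeletal muscle actin, in combination libraries and 13538 to 20793 TPM in butyrate libraries. Wt1, a transcription factor gene of mesothelium, the cell layer that lines the peritoneum, spread widely in both groups. It was at 4.33, 15.6, 216, 203 and 1.76 TPM in combination replicates 1, 2, 3, 4 and 6, and at 0.37, 166, 71.4, 17.2, 1.73 and 27.97 TPM in butyrate replicates 1 to 6. Combination replicates 3 and 4 and butyrate replicate 2 were richest, and the groups overlapped. The keratin gene Krt8 was highest in the same 3 libraries, at 137 and 146 TPM in combination replicates 3 and 4 and 110 TPM in butyrate replicate 2. So were Nr5a1, of the ovary list, at 33.6, 29.5 and 20.2 TPM, and the proliferation marker Mki67, at 9.04, 9.68 and 7.47 TPM, in that order. Whether Wt1 stood for mesothelium or for tumour in these pieces was not tested. In bulk tissue, fewer cells of a type and less RNA per cell cannot be told apart.

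Genes of interferon gamma signalling, antigen presentation, chemokines, neutrophils and macrophages averaged higher in the combination libraries, and genes of the mitochondrial genome averaged lower. No single gene passed the test. In a limma fit on log2(TPM + 1), 0 of 15317 genes (0%) had a Benjamini-Hochberg adjusted p under 0.05 (smallest 0.681). Without adjustment, a p under 0.05 was reached by 914 genes (5.97%) on the higher side and by 68 (0.444%) on the lower side. The higher count was 4036 (26.3%), still with 0 genes passing (smallest adjusted p = 0.0698), when the library number in the descriptions was added as a block. All genes leaned the same way: 80.4% had a log2 difference above 0 and 19.6% below, with a median of 0.23. Median-of-ratios scaling moved that median to 0.01 and the split to 533 higher and 341 lower, and quantile normalization moved it to -0.0046 with 537 higher and 381 lower. List medians below are best read against the median of 0.23.

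**Figure D1:**
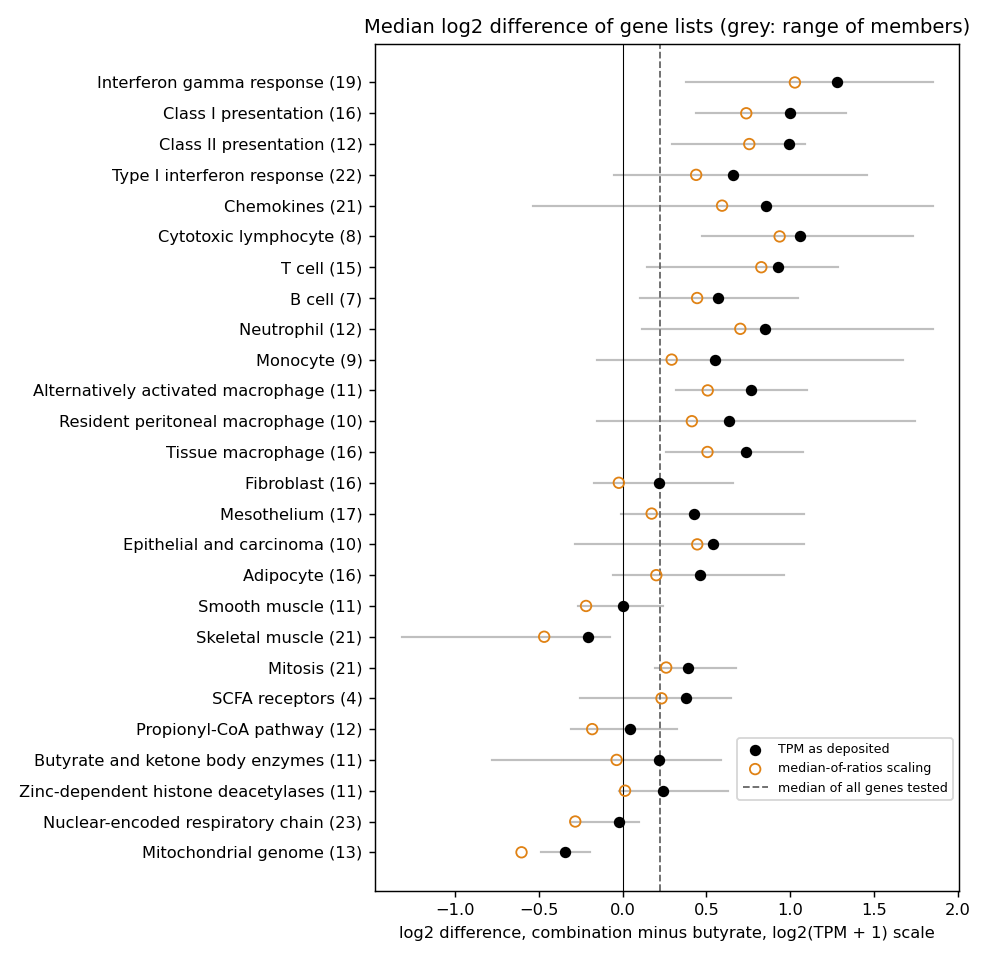
Median log2 difference, combination minus butyrate, of 26 gene lists on the log2(TPM + 1) scale, with the number of tested members in brackets and the range of members as a grey line. Filled points use TPM as deposited and open points median-of-ratios scaling, and the dashed line marks the median of all genes tested, 0.23. The interferon gamma response list has the highest median, 1.28 (1.03 with median-of-ratios scaling), and the mitochondrial genome list the lowest, -0.34 (-0.60).

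The interferon gamma response list stood at a median log2 difference of 1.28, the highest of the lists plotted. All 19 tested members, of 20 listed, lay above 0, and 13 had an unadjusted p under 0.05. Several members are immunity GTPases, which attack the vacuoles of intracellular pathogens. Tgtp1, one of these GTPases, was at 11.4, 37.6, 22.9, 21.65 and 5.42 TPM in combination replicates 1, 2, 3, 4 and 6, against 5.11, 6.34, 4.16, 7.97, 3.68 and 5.49 TPM in butyrate replicates 1 to 6. Combination replicates 1 to 4 lay above every butyrate library and replicate 6 lay inside their range. The log2 difference was 1.48 ± 0.42 (SE, n = 5 and 6, limma adjusted p = 0.681).

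Gbp5, a guanylate-binding protein that promotes inflammasome assembly, was at 9.68, 18.8, 17.7, 22.04 and 5.71 TPM in combination replicates 1, 2, 3, 4 and 6, against 4.72 to 7.26 TPM in butyrate libraries. Its log2 difference was 1.12 ± 0.34. Irgm2, an immunity-related GTPase, was at 38.4, 125, 80.8, 85.0 and 18.2 TPM in the combination libraries in the same order, against 10.5 to 29.4 TPM in butyrate libraries, a difference of 1.42 ± 0.46. Iigp1, of the same family, averaged 80.2 ± 59.1 TPM in combination libraries and 20.6 ± 10.2 TPM in butyrate libraries (SD, n = 5 and 6), a difference of 1.62 ± 0.61. In each of these genes combination replicate 2, 3 or 4 was the highest library and replicate 6 overlapped the butyrate group. Copies in these GTPase families are alike, so reads may be shared between them and values of single members are uncertain.

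Upstream of these effectors, Irf1, a transcription factor that interferon gamma induces, was at 23.9, 51.65, 63.6, 67.6 and 19.3 TPM in combination replicates 1, 2, 3, 4 and 6. In butyrate replicates 1 to 6 it was at 11.96, 30.3, 23.55, 17.4, 14.0 and 19.5 TPM. Replicates 2, 3 and 4 of the combination group lay above every butyrate library, and the log2 difference was 1.07 ± 0.44. The chemokine genes Cxcl9 and Cxcl10, which attract T cells, differed by 1.85 ± 0.92 and 1.37 ± 0.78. Irf1, Cxcl9 and Cxcl10 were named after their values were seen, and none passed the test. Ifng itself was too low to be tested, at 0.28, 1.19, 1.12, 1.97 and 0 TPM in combination replicates 1, 2, 3, 4 and 6, against 0 to 0.66 TPM in butyrate libraries.

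**Figure D2:**
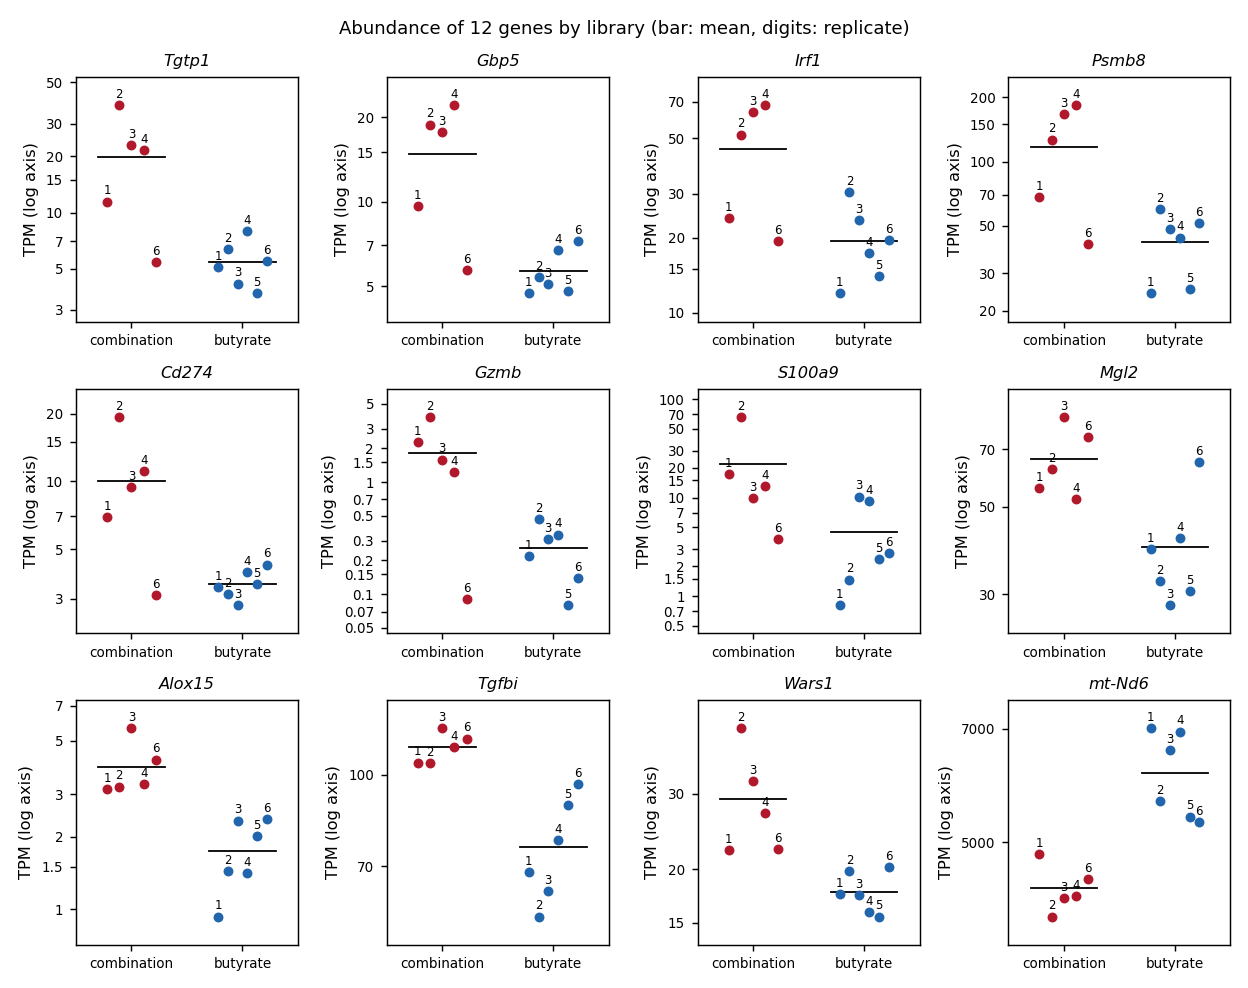
Abundance of 12 genes in the 5 combination and 6 butyrate libraries in TPM on log axes, with digits for the replicate and a bar for the group mean. For Tgtp1, Gbp5, Irf1, Psmb8, Cd274 and Gzmb, combination replicate 6 falls among the butyrate libraries, while for Alox15, Tgfbi, Wars1 and mt-Nd6 the groups do not overlap.

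The promoters of 5 genes of the interferon gamma and class I lists are shown because interferons signal to DNA through motifs of the types marked in them. They span 250 bases before to 50 after the start of the gene, from RefSeq's table of mouse build GRCm38.p6, which is not the build of the deposited values, mm39. Each is the gene's first promoter in that table with a match, so all 5 hold a motif by choice. Capitals mark GAAANNGAAA, a pair of the half-sites that IRF factors bind, and TTCNNNGAA, the palindrome of the interferon gamma-activated site, both searched on both strands. Where GAAANNGAAA lies on the other strand, the printed letters are its reverse complement. In Tgtp1 and Irgm2 the palindrome lies just before the IRF pair, in Gbp5 the IRF pair lies between 2 palindromes, and Irf1 and Psmb8 hold a palindrome alone.
Tgtp1 promoter: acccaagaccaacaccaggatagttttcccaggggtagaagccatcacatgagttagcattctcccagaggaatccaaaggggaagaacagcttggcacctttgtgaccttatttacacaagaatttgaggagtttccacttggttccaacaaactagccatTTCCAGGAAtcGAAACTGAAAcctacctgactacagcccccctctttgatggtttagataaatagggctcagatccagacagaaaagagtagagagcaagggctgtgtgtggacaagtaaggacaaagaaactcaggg
Irgm2 promoter: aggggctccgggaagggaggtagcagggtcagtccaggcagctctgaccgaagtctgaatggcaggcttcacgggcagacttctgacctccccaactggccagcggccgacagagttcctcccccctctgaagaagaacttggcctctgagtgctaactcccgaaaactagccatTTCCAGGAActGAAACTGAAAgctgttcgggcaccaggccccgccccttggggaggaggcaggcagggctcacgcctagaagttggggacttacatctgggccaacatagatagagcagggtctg
Gbp5 promoter: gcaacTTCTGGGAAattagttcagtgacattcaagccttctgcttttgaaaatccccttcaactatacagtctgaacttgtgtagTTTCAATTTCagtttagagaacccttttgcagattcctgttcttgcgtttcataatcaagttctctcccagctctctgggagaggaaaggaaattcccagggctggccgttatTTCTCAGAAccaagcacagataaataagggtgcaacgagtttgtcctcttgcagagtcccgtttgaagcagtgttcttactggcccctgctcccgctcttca
Irf1 promoter: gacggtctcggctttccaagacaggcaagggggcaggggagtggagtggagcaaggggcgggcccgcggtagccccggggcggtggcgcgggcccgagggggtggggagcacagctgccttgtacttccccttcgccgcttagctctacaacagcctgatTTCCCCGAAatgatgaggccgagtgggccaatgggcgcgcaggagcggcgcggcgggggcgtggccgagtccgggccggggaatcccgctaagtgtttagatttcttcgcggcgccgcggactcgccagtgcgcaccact
Psmb8 promoter: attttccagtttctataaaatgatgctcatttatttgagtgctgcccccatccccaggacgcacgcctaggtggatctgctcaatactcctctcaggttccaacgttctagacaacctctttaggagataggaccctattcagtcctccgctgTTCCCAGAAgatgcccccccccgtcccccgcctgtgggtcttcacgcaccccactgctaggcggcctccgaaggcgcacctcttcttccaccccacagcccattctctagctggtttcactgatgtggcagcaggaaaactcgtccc
Tgtp1 is taken from chr11:48992197-48992496 on the minus strand, and the rest from the plus strand: Irgm2 from chr11:58214727-58215026, Gbp5 from chr3:142496684-142496983, Irf1 from chr11:53769764-53770063 and Psmb8 from chr17:34197945-34198244. The IRF pair starts 77 bases before the start of Tgtp1, 64 before that of Irgm2 and 165 before that of Gbp5. The palindrome starts 90 bases before the start of Irf1 and 97 before that of Psmb8.

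Of 19 tested interferon gamma response genes, 13 had a promoter in the table, and 11 of the 13 held GAAANNGAAA and 7 held TTCNNNGAA. Over all 32851 mouse promoters of that table the shares were 3.44% and 8.3%. These shares count single promoters, while a gene was counted if any of its promoters held the motif, so the units differ. Of 16 class I presentation genes, 14 had a promoter, of which 4 held the first motif, B2m, Erap1, H2-T22 and H2-T23, and 1 the second, Psmb8. A match describes the letters of this window, and binding was not measured.

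Class I presentation genes were at a median log2 difference of 1.00, with all 16 members above 0 and 13 at an unadjusted p under 0.05. The heavy-chain gene H2-D1, which encodes a classical class I molecule, was at 436, 813, 717, 674 and 258 TPM in combination replicates 1, 2, 3, 4 and 6. In butyrate replicates 1 to 6 it was at 194, 351, 267, 313, 191 and 398 TPM. Combination replicates 1 to 4 lay above every butyrate library, and the difference was 0.96 ± 0.34. H2-Q4 and H2-Q6, of the less polymorphic Q region, differed by 1.02 ± 0.37 and 1.16 ± 0.43, with values that may share reads between copies. Tapbp, tapasin, which loads peptide onto class I, differed by 0.96 ± 0.63, and its relative Tapbpl, at 6.12 to 14.6 TPM in combination libraries and 3.19 to 6.11 TPM in butyrate libraries, by 0.96 ± 0.37. In Tapbpl the groups narrowly did not overlap.

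Within the proteasome, the subunits that interferon gamma induces stood apart in size from the ones they replace. Psmb8, which replaces Psmb5 in the immunoproteasome, was at 68.4, 127, 167, 184 and 40.9 TPM in combination replicates 1, 2, 3, 4 and 6. The values in butyrate replicates 1 to 6 were 24.1, 59.9, 48.05, 43.99, 25.2 and 51.3 TPM. Psmb8 differed by 1.33 ± 0.52, Psmb9 by 1.26 ± 0.55 and Psmb10 by 0.90 ± 0.27.

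Psmb10 was the member of the class I list whose groups did not overlap, at 32.2, 57.0, 53.03, 53.4 and 28.4 TPM in combination replicates 1, 2, 3, 4 and 6 and 18.7 to 26.8 TPM in butyrate libraries. Over all genes tested, 129 (0.842%) had every combination library above every butyrate library, and 10 (0.0653%) the reverse. The constitutive counterparts Psmb5, Psmb6 and Psmb7 differed by 0.19 ± 0.095, 0.24 ± 0.094 and 0.08 ± 0.079. All 3 lay below 0 with median-of-ratios scaling, at -0.069, -0.017 and -0.18.

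The PA28 activator genes Psme1 and Psme2, also induced by interferon gamma, differed by 0.86 ± 0.41 and 0.81 ± 0.47. The 19S regulator, the cap that unfolds substrates, had a median of 0.22 over 17 subunits and the structural subunits of the 20S core 0.28 over 11. Psmb2, of that core, was at 86.3 to 115 TPM in combination libraries and 59.2 to 86.2 TPM in butyrate libraries, with no overlap and a difference of 0.49 ± 0.15. The proteasome lists other than Psmb8, Psmb9 and Psmb10 were drawn up after values were seen, and no difference between lists was tested.

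**Figure D3:**
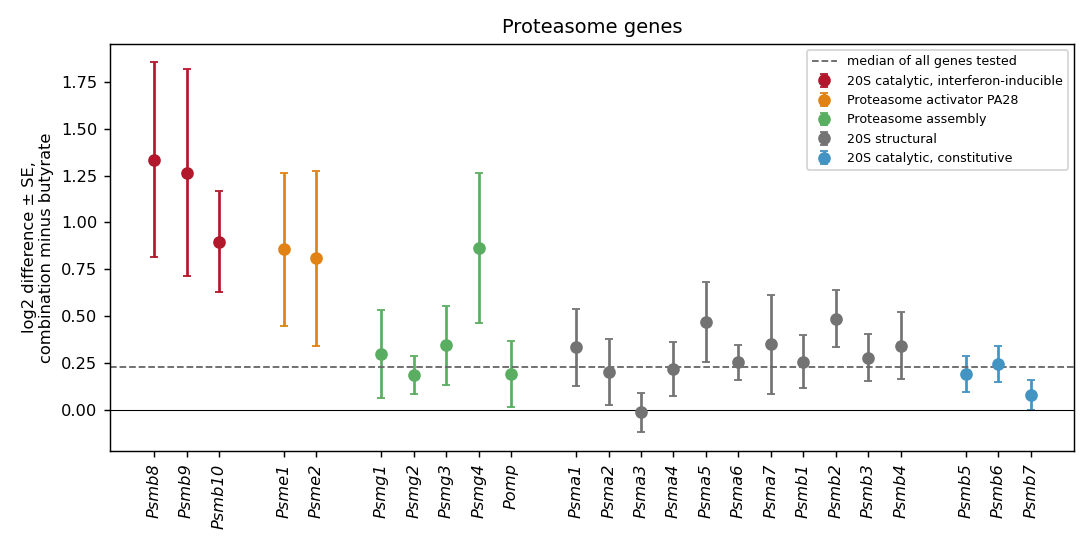
Log2 difference, combination minus butyrate, with its SE for the subunits, activators and assembly factors of the 20S proteasome. The inducible catalytic subunits lie at 0.90 to 1.33 and PA28 at 0.81 and 0.86, while the constitutive catalytic subunits lie at 0.08 to 0.24, around the median of all genes (dashed line).

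Class I scores ran with the make-up of the pieces within each group. The class I score was 5.74, 6.75, 6.81, 6.79 and 5.00 in combination replicates 1, 2, 3, 4 and 6, against 4.73, 5.78, 5.32, 5.435, 4.50 and 5.49 in butyrate replicates 1 to 6. At similar Wt1 the combination library was the higher one. Combination replicate 2, with 15.6 TPM of Wt1, scored 6.75, against 5.435 for butyrate replicate 4 with 17.2 TPM. Combination replicate 6, with 1.76 TPM, scored 5.00, against 4.50 for butyrate replicate 5 with 1.73 TPM. These pairs of libraries were picked after their values were seen.

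**Figure D4:**
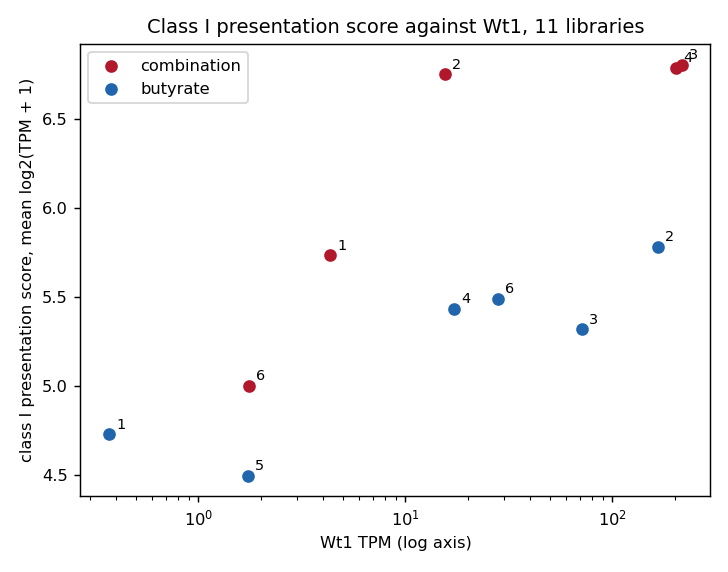
Class I presentation score, the mean log2(TPM + 1) of 16 genes, against Wt1 in TPM on a log axis for the 5 combination and 6 butyrate libraries, with digits for the replicate. The score tends to be higher in libraries with more Wt1 in both groups, and combination libraries lie above butyrate libraries of similar Wt1.

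With tissue covariates, or without the pieces rich in Wt1, the medians of the interferon gamma and class I lists were smaller and still above 0. The covariates came from the scores of 8 lists of other tissues, muscle, fat and ovary among them. With them the medians were 0.92 for the interferon gamma list and 0.74 for class I. No list of leukocytes or mesothelium was among the 8, so the share of immune cells was not adjusted for. Without combination replicates 3 and 4 and butyrate replicate 2, which left 3 and 5 libraries, the medians were 0.76 and 0.78. There, 1 member of each list had an unadjusted p under 0.05. Over all genes that left 454 on the higher side and 28 on the lower side before adjustment. Adipocyte genes in that setting had a median of 0.85, with 11 of 16 higher at an unadjusted p under 0.05. In the main fit these were 0.46 and 1. The pieces kept thus still differed in fat genes, and the part of fat was not tested. With the library number as a block the interferon gamma and class I medians were 1.65 and 1.21. Over all genes the median was 0.10 with the tissue covariates, 0.11 without the pieces rich in Wt1 and 0.29 with the block.

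With the tissue covariates, 43 genes (0.281%) passed an adjusted p of 0.05 in limma, all higher in the combination libraries, by 0.36 to 1.08 on the log2 scale. The covariates drew on muscle scores, which the choice of libraries also used. Coro1a, which encodes an actin-binding protein of leukocytes, had the smallest adjusted p (0.0148), at 0.74. In combination replicate 5, the library left out, it was at 450 TPM. Its abundance was 30.5, 54.3, 77.1, 64.55 and 32.8 TPM in combination replicates 1, 2, 3, 4 and 6, against 13.3 to 39.4 TPM in butyrate libraries. Antigen processing genes among the 43 were Psmb8 (1.03, adjusted p = 0.0458), Psmb10 (0.73, 0.0377), Psme1 (0.57, 0.0341), Tapbp (0.52, 0.0458) and Tapbpl (0.73, 0.0377). Irf1 also passed there, at 0.81 (0.0343). Many of the 43 were leukocyte genes, such as Itgal, Skap1, Sash3, Ptpn6 and Lcp1, and Cd3e of the T cell list was among them. Such genes are akin to those behind the choice of libraries, so their passing, that of Coro1a included, counts as no test. In combination replicate 5, Psmb8 (289 TPM), Psmb10 (75.95), Psme1 (275), Tapbpl (26.9) and Irf1 (98.9) were also above all 11 libraries compared. Tapbp (156) was not. The part of leukocytes in the passing of these genes was not tested. Of the 43, 35 had an unadjusted p under 0.05 and 8 had no overlap between groups, both without covariates, and 0 passed with the library number as a block.

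Class II presentation genes, which show peptides to CD4 T cells, had a median of 0.99 with 12 of 12 above 0, but 1 at an unadjusted p under 0.05. H2-Aa, the alpha chain of the I-A molecule, was at 573, 811, 2199, 1730 and 267 TPM in combination replicates 1, 2, 3, 4 and 6, against 183, 875, 557, 395, 284 and 511 TPM in butyrate replicates 1 to 6. Its highest values fell in the libraries rich in Wt1, the groups overlapped, and the difference was 1.05 ± 0.64.

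Genes that type I interferon induces had a median of 0.66, with 21 of 22 above 0 and 10 at an unadjusted p under 0.05. Zbp1, a sensor of left-handed nucleic acid, differed by 1.46 ± 0.49, with 16.3, 39.3, 37.9, 49.99 and 12.8 TPM in combination replicates 1, 2, 3, 4 and 6 and 2.73 to 17.7 TPM in butyrate libraries. Bst2, tetherin, which holds budding virus at the membrane, differed by 0.92 ± 0.36, and the 2-5A synthetase gene Oas1a by 0.77 ± 0.32. In each of these genes the groups overlapped.

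Genes of T cells and of killing followed the same libraries. These lists are akin to the values that removed combination replicate 5, so only levels, list medians and counts above 0 are given. All 15 T cell genes tested lay above 0, at a median of 0.93. Cd3e, a chain of the T cell receptor complex, was at 1.27, 4.55, 6.80, 7.07 and 0.63 TPM in combination replicates 1, 2, 3, 4 and 6, against 0.50, 1.49, 1.57, 0.78, 0.04 and 0.89 TPM in butyrate replicates 1 to 6. Cd8a was at 0.53, 1.04, 1.01, 3.17 and 0.04 TPM in the combination libraries in that order, against 0.03 to 0.52 TPM in butyrate libraries. All 7 B cell genes tested lay above 0, at a median of 0.57, and Cd79a, a chain of the B cell receptor complex, was at 0.14 to 3.27 TPM in combination libraries and 0.09 to 1.01 TPM in butyrate libraries.

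Effector genes of killer lymphocytes had a median of 1.06, with 8 of 8 tested above 0 and 8 more listed below the filter. Gzmb, the apoptosis-inducing protease granzyme B, was at 2.29, 3.82, 1.59, 1.22 and 0.09 TPM in combination replicates 1, 2, 3, 4 and 6. In butyrate replicates 1 to 6 it was at 0.22, 0.47, 0.31, 0.34, 0.08 and 0.14 TPM, so 4 of 5 combination libraries lay above the butyrate range. Nkg7, a protein of cytotoxic granules, averaged 7.23 ± 4.70 TPM in combination libraries and 1.57 ± 0.87 TPM in butyrate libraries. Gzma averaged 4.53 ± 3.49 TPM in combination libraries and 1.18 ± 0.50 TPM in butyrate libraries. The chemokine gene Ccl5 averaged 36.5 ± 24.9 TPM in combination libraries and 7.48 ± 5.17 TPM in butyrate libraries. Prf1, perforin, averaged 0.48 ± 0.40 TPM in combination libraries and 0.10 ± 0.083 TPM in butyrate libraries, below the filter.

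**Figure D5:**
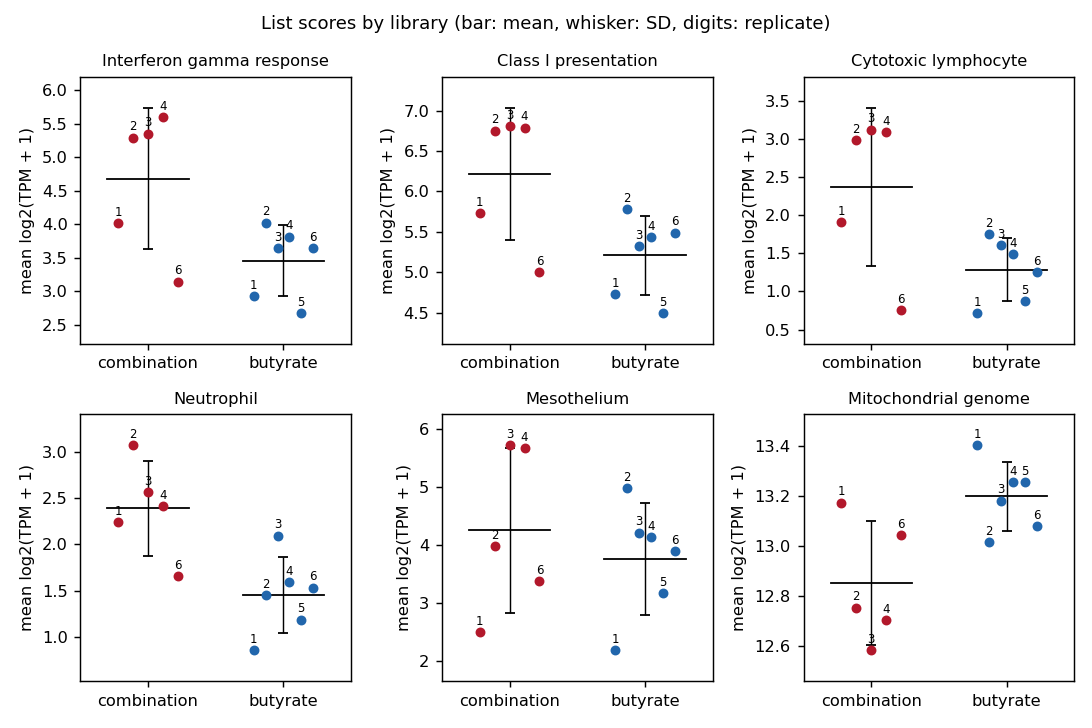
Scores of 6 gene lists, the mean log2(TPM + 1) of their tested members, in the 5 combination and 6 butyrate libraries, with the mean, the SD and the replicate number. Combination replicates 2, 3 and 4 score highest for interferon gamma, class I and cytotoxic genes, replicate 6 scores near or below the butyrate mean there, and mesothelium scores overlap widely.

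T cell checkpoint and regulatory genes had a median of 0.51, with 11 of 11 above 0, and single genes of T cells are again given as levels alone. Cd274, which encodes the PD-1 ligand PD-L1 and is itself induced by interferon gamma, was at 6.93, 19.3, 9.44, 11.1 and 3.12 TPM in combination replicates 1, 2, 3, 4 and 6. Values in butyrate replicates 1 to 6 were 3.38, 3.15, 2.82, 3.94, 3.49 and 4.26 TPM. The difference was 1.11 ± 0.32, with 4 of 5 combination libraries above the whole butyrate range. Il2ra, the high-affinity chain of the interleukin 2 receptor, averaged 1.78 ± 0.94 TPM in combination libraries and 0.77 ± 0.26 TPM in butyrate libraries. The inhibitory receptor gene Lag3 was at 0.63 to 3.14 TPM in combination libraries and 0.30 to 1.99 TPM in butyrate libraries, and Tigit at 0.17 to 3.40 TPM and 0 to 1.12 TPM in the same order. Pdcd1, which encodes PD-1, averaged 0.85 ± 0.90 TPM in combination libraries and 0.34 ± 0.33 TPM in butyrate libraries. Foxp3, the transcription factor of regulatory T cells, was under the filter, at 0.55 ± 0.58 TPM in combination libraries and 0.25 ± 0.25 TPM in butyrate libraries.

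Chemokine genes had a median of 0.85, with 20 of 21 above 0 and 8 at an unadjusted p under 0.05. Ccl7, which recruits monocytes, was at 14.5, 42.3, 15.6, 13.9 and 25.35 TPM in combination replicates 1, 2, 3, 4 and 6, against 1.42, 14.5, 8.24, 10.7, 2.94 and 13.2 TPM in butyrate replicates 1 to 6. Here combination replicate 6 was the second highest library, and the difference was 1.44 ± 0.55. The macrophage chemokine genes Ccl6 and Ccl9 differed by 0.85 ± 0.29 and 0.80 ± 0.27, and Ccl19, which guides dendritic cells and T cells, by 0.73 ± 0.28.

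Neutrophil genes had a median of 0.85 over 12 tested members of 20 listed, with 12 above 0 and 8 at an unadjusted p under 0.05. The alarmin gene S100a9 was at 17.5, 66.0, 9.92, 13.1 and 3.82 TPM in combination replicates 1, 2, 3, 4 and 6, against 0.81, 1.47, 10.2, 9.28, 2.38 and 2.75 TPM in butyrate replicates 1 to 6. Combination replicate 2 was far above the rest, the groups overlapped, and the difference was 1.85 ± 0.58. The decoy interleukin 1 receptor gene Il1r2 differed by 0.76 ± 0.23, the formyl peptide receptor gene Fpr2 by 0.91 ± 0.30 and Retnlg by 0.95 ± 0.32. The list stood at 0.91 without the pieces rich in Wt1, and at 1.38 when genes under 5 TPM were filtered out.

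Macrophage lists also lay above the median of all genes. Tissue macrophage genes had a median of 0.74 (16 of 16 above 0, 3 at an unadjusted p under 0.05), and alternatively activated macrophage genes 0.76 (11 of 11, 6). Mgl2, a lectin of alternatively activated macrophages, was at 55.7, 62.3, 84.65, 52.3 and 75.3 TPM in combination replicates 1, 2, 3, 4 and 6, against 39.0, 32.4, 28.1, 41.6, 30.5 and 64.8 TPM in butyrate replicates 1 to 6. Butyrate replicate 6 alone reached the combination range, and the difference was 0.76 ± 0.22. Other members of that list differed by 0.47 ± 0.21 for Clec10a, 0.50 ± 0.23 for the mannose receptor gene Mrc1 and 0.84 ± 0.38 for Ccl24. Among tissue macrophage genes Cd68 differed by 0.91 ± 0.37, the lysozyme gene Lyz2 by 0.72 ± 0.34, the complement gene C1qb by 0.89 ± 0.43 and Folr2 by 0.54 ± 0.26.

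Resident peritoneal macrophage genes had a median of 0.63 (9 of 10 above 0, 4 at an unadjusted p under 0.05). Alox15, the lipoxygenase of large peritoneal macrophages, was at 3.15, 3.23, 5.63, 3.31 and 4.18 TPM in combination replicates 1, 2, 3, 4 and 6, against 0.93, 1.44, 2.33, 1.41, 2.01 and 2.37 TPM in butyrate replicates 1 to 6. All combination libraries lay above all butyrate libraries, replicate 6 included, and the difference was 0.84 ± 0.18. Saa3, an acute phase protein, did not overlap between groups either, by 59.5 to 93.0 TPM in combination libraries and 2.08 to 59.2 TPM in butyrate libraries, a difference of 1.74 ± 0.61. Timd4, a receptor for dying cells, differed by 0.71 ± 0.28 and Icam2 by 0.56 ± 0.22. Monocyte genes had a median of 0.55 (8 of 9, 4), with Ly6c2 at 1.67 ± 0.66, with Plac8 at 0.84 ± 0.35 and F13a1, a clotting factor subunit, at 0.55 ± 0.25.

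By the rule for naming, 11 genes higher and 12 lower in the combination libraries are given for their small p among genes of some abundance, and none passed. Among the higher ones, Tgfbi, a secreted matrix protein that TGF-beta induces, was at 105, 105, 120, 111 and 115 TPM in combination replicates 1, 2, 3, 4 and 6. In butyrate replicates 1 to 6 it was at 68.4, 57.55, 63.6, 77.5, 88.8 and 96.5 TPM. The groups did not overlap, the combination libraries spread little, and the difference was 0.58 ± 0.12.

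Wars1, the tryptophanyl-tRNA synthetase that interferon gamma induces, was at 22.1 to 42.7 TPM in combination libraries and 15.5 to 20.3 TPM in butyrate libraries, a difference of 0.66 ± 0.17 with no overlap. Pglyrp1, which binds bacterial cell walls, differed by 0.83 ± 0.21, and Rab27a, which docks secretory granules, by 0.61 ± 0.16. Snrnp25 of the minor spliceosome differed by 0.47 ± 0.11, Sys1 of Golgi traffic by 0.43 ± 0.11 and the redox sensor gene Nmral1 by 0.58 ± 0.15, all without overlap. The adaptor gene Dok2 (0.87 ± 0.22), the receptor gene Pira12 (0.75 ± 0.19, a family with similar copies) and F10, clotting factor X (0.93 ± 0.24), had overlapping groups.

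Genes lower in the combination libraries were fewer, and 3 of the 12 named belonged to the mitochondrial genome. The complex I gene mt-Nd6 was at 4832, 4014, 4241, 4267 and 4488 TPM in combination replicates 1, 2, 3, 4 and 6. Butyrate replicates 1 to 6 held 7010, 5651, 6579, 6944, 5398 and 5311 TPM. The groups did not overlap, and the difference was -0.49 ± 0.15 (limma adjusted p = 0.681). The ATP synthase gene mt-Atp8, at -0.46 ± 0.18, did not overlap either, and mt-Nd5 was at -0.38 ± 0.15. All 13 protein genes of the mitochondrial genome lay below 0, at a median of -0.34, and 3 had an unadjusted p under 0.05.

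Summed over the mitochondrial genome, transcripts took 21.65, 16.6, 14.9, 16.3 and 19.3% of the TPM in combination replicates 1, 2, 3, 4 and 6, against 26.8, 20.5, 22.5, 25.5, 22.6 and 21.2% in butyrate replicates 1 to 6. The mean was 17.75 ± 2.71% in combination libraries and 23.2 ± 2.46% in butyrate libraries (SD, n = 5 and 6). The difference of -5.41 percentage points had a two-sided exact permutation p of 0.0130, with the combination library higher in 2 of 30 pairs. Without the pieces rich in Wt1 it was -4.51 (exact permutation p = 0.0714, where 0.0357 is the smallest possible). A large part of the share was mt-Atp8 alone, at 63931 to 89026 TPM in combination libraries and 90917 to 120779 TPM in butyrate libraries. The 13 protein genes together held 147756 to 213866 and 202800 to 264413 TPM in the same order. The share without mt-Atp8 was not tested. The share was lowest in combination replicates 3 and 4, also lowest in skeletal muscle genes, and was 13.9% in combination replicate 5, which was left out. Muscle genes were used in the choice of libraries, and their part in the share was not tested. With tissue covariates the median of the mitochondrial genome list was -0.22. Nuclear genes of the respiratory chain, whose proteins work beside those of the mitochondrial genome, had a median of -0.02 over 23 genes, and 0 had an unadjusted p under 0.05. TPM has a fixed total, so the summed share of other genes moves against this one, and its part in the median of 0.23 over all genes was not tested.

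Skeletal muscle genes, which the choice of libraries used, were at a median of -0.21 with 0 of 21 above 0. Ttn, the giant sarcomere protein titin, was at 49.1, 58.1, 21.4, 26.6 and 50.5 TPM in combination replicates 1, 2, 3, 4 and 6, against 165, 98.9, 140, 160, 55.6 and 40.7 TPM in butyrate replicates 1 to 6. Muscle levels were lowest in combination replicates 3 and 4, the pieces richest in Wt1, where most immune lists scored high. For the interferon gamma and class I lists, both alternatives stand above. Without the pieces rich in Wt1, medians were 0.45 for class II, 0.37 for type I interferon, 0.63 for chemokine and 0.43 for monocyte genes. They were 0.46, 0.56 and 0.59 for tissue, alternatively activated and resident peritoneal macrophage genes. Members higher at an unadjusted p under 0.05 numbered 0, 1, 4, 1, 0, 1 and 4 in the order given. The other lower genes named included the matrix genes Thbs4 (-0.68 ± 0.23) and Col7a1 (-0.88 ± 0.30), the muscle gene Atp1b4 (-0.81 ± 0.32), Sms, spermine synthase (-0.26 ± 0.10), and the phosphatase gene Dusp10 (-0.45 ± 0.19). Spata1 (-0.67 ± 0.26), AI838599 (-0.70 ± 0.25), Lncppara (-0.66 ± 0.27) and Mhrt, a noncoding RNA of the Myh7 locus that overlaps it on the other strand (-0.63 ± 0.26), completed them.

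Genes that sense and use the acids themselves had list medians nearer to that of all genes. Ffar2, the receptor for short-chain acids on neutrophils and other leukocytes, was at 3.04, 6.25, 1.03, 0.65 and 0.81 TPM in combination replicates 1, 2, 3, 4 and 6, against 0.24 to 1.39 TPM in butyrate libraries, with a difference of 0.65 ± 0.29. Replicates 1 and 2 alone lay above the butyrate range, and they were also the libraries highest in S100a9. They were highest in the adipocyte list score as well, at 6.26 and 7.39, against 4.60 to 6.18 in butyrate libraries. Which cells held Ffar2 was not tested. Hcar2, which senses butyrate and beta-hydroxybutyrate, differed by 0.44 ± 0.23, with 6.18 TPM in combination replicate 2 and 2.25 TPM or less in the other libraries. Ffar4, a receptor for long-chain fatty acids, differed by 0.32 ± 0.24, and Or51e2, an olfactory-type receptor for short-chain acids, by -0.26 ± 0.20. Ffar3 was listed at 0 in 10 of the 11 libraries.

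Among carriers, Slc16a1, the monocarboxylate carrier MCT1, was at 7.59, 15.75, 15.75, 21.5 and 16.2 TPM in combination replicates 1, 2, 3, 4 and 6, against 10.8 to 15.7 TPM in butyrate libraries. The difference of 0.25 ± 0.22 was -0.00043 with median-of-ratios scaling. Slc16a7, MCT2, differed by 0.61 ± 0.27, and the MCT chaperone genes Bsg and Emb by 0.21 ± 0.10 and 0.35 ± 0.30, Bsg at -0.048 with median-of-ratios scaling.

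Enzymes that turn propionyl-CoA into succinyl-CoA had a median of 0.04 over 12 genes, with 1 at an unadjusted p under 0.05. Pcca and Pccb, the subunits of propionyl-CoA carboxylase, differed by 0.30 ± 0.14 and 0.27 ± 0.14, Suclg2, of succinyl-CoA synthetase, by 0.32 ± 0.19, and Mmab, which makes the cobalamin cofactor, by 0.25 ± 0.12 (-0.030 with quantile normalization).

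Butyrate and ketone body enzymes had a median of 0.22 over 11 genes, and 4 of the 11 had an unadjusted p under 0.05 on the higher side. Hadh, of fatty acid oxidation, did not overlap between groups, at 85.6 to 112 TPM in combination libraries and 75.1 to 82.9 TPM in butyrate libraries. Its difference of 0.25 ± 0.099 was close to the median of all genes and was -0.013 with median-of-ratios scaling. Echs1 and Bdh2 differed by 0.28 ± 0.11 and 0.44 ± 0.20. Zinc-dependent histone deacetylase genes had a median of 0.24 over 11 genes with 0 at an unadjusted p under 0.05. In that list Hdac11 was at 0.63 ± 0.31, Hdac1 at 0.60 ± 0.40, Hdac9 at 0.25 ± 0.15 and Hdac5 at 0.20 ± 0.14 (-0.053 with median-of-ratios scaling).

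Stroma genes lay near or below the median of all genes and growth genes above it. Collagen genes had a median of 0.03, with 8 of 16 above 0. Fibroblast genes had a median of 0.22 over 16 genes, with 4 at an unadjusted p under 0.05. Ly6a, Sca-1 of stromal progenitors and lymphocytes and itself interferon-inducible, was at 444, 569, 422, 370 and 468 TPM in combination replicates 1, 2, 3, 4 and 6, against 236 to 448 TPM in butyrate libraries, a difference of 0.66 ± 0.19. Clec3b differed by 0.49 ± 0.19, Dpt by 0.39 ± 0.17 and Pdgfra, a receptor of fibroblasts, by 0.29 ± 0.11. DNA replication genes had a median of 0.53 and mitosis genes 0.39, each with 21 of 21 above 0 and 0 at an unadjusted p under 0.05. Without the pieces rich in Wt1 the medians were 0.12 and -0.091. The proliferation marker Mki67 averaged 4.64 ± 4.33 TPM in combination libraries and 2.80 ± 2.79 TPM in butyrate libraries. Cdkn1a, the cell cycle inhibitor p21, differed by 0.09 ± 0.19 (-0.16 with median-of-ratios scaling), and Il15, a survival cytokine of killer lymphocytes, by 0.14 ± 0.18 (-0.11). Wt1 differed by 0.59 ± 1.72.

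Whether the difference with propionate depended on butyrate was tested as an interaction, combination minus butyrate set against propionate minus control. In limma 0 of 15317 genes (0%) passed, with a smallest adjusted p of 0.200. Without adjustment, a p under 0.05 was reached by 3728 genes (24.3%) on the higher side and 86 (0.561%) on the lower side, with a median of 0.51 over all genes. These counts depended on scaling: median-of-ratios scaling gave 1121 higher and 873 lower and quantile normalization 958 and 1019. They also depended on the tissue covariates, which gave 1738 higher and 95 lower, with a median of 0.13 over all genes. Without combination replicate 3 the count was 1802 higher. The interferon gamma list had a median of 1.28 for combination minus butyrate and -0.17 for propionate minus control, and the class I list 1.00 and -0.27. Over all genes the medians were 0.23 for combination minus butyrate and -0.30 for propionate minus control, so neither list median lay below that of all genes in the propionate contrast. Wt1 was at 1.07, 2.58, 336, 254, 1.27 and 21.3 TPM in propionate replicates 1 to 6. In control replicates 1 to 6 it was at 131, 368, 0.65, 217, 328 and 257 TPM. With tissue covariates the propionate minus control median was -0.026, and the part of tissue make-up in that contrast was not tested. For Tgtp1 the means were 19.8 TPM in combination libraries, 10.8 TPM with propionate, 5.46 TPM with butyrate and 8.96 TPM in control.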

How the data were processed

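Per the labels' protocols, TRIzol-extracted RNA of the 24 samples was selected for poly(A) and made into stranded libraries. The authors deposited 1 table of TPM for 149132 transcripts. The submitters' processing notes name fastp, HISAT2, StringTie and the build mm39, and the sources used here give no versions, settings or annotation. Sequencing depth is unknown, since TPM does not keep it, so no counting interval is given. TPM was summed by gene name. The 1001 transcripts with no gene name, 0.174 to 0.470% of a library's TPM, were left out.

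Genes with at least 1 TPM in at least 5 of 23 libraries were tested as log2(TPM + 1) with limma 3.58.1 (R 4.3.3, moderation with trend and robust), with Benjamini-Hochberg adjustment over 15317 genes and a threshold of 0.05. The fit held the combination (without replicate 5), propionate, butyrate and control libraries. Log2 differences understate the change of genes near 0. The mitochondrial share was compared by an exact permutation test over 462 arrangements (SciPy 1.17.1), with a smallest possible p of 0.00433. The fit was tested on simulated data. Libraries held 12618 to 15418 genes at 1 TPM or more.

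Named genes were those that passed, or else, per direction, the 12 of smallest unadjusted p whose log2(TPM + 1) averaged 1 or more, without predicted genes, up to 4 per described list, and a fixed set of 15 always reported. Some results that this rule would name are not reported here. Genes outside this rule were chosen after their values were seen: Irf1, Cxcl9, Cxcl10, Krt8, Nr5a1, Acta1, Ttn, Cd3e, Cd79a, Tapbp, Tapbpl, Coro1a, Itgal, Skap1, Sash3, Ptpn6, Lcp1, Trbv3 and the proteasome genes. The libraries, gene lists and tests were chosen with earlier results of these data known. Library numbers in the descriptions pair 4 combination with 4 butyrate libraries, whose deviations from the group means correlated at 0.32 to 0.74. What the number stands for is not stated. Alternatives were another pseudocount, filters, scalings, library weights, moderation, blocks, tissue covariates (2 principal components of 8 tissue list scores), all combination libraries, and leaving out libraries. Whether counting used the strand is not stated, so antisense pairs are uncertain.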

Additional observations from a re-analysis of the deposited data

Results flagged for a closer look

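Combination replicate 5, the library left out of the comparison, held transcripts of lymphocytes above the level of every control library: 275 TPM of the B cell gene Cd79a, 67.3 TPM of the coreceptor gene Cd8a and 68.8 TPM of the T cell receptor gene Cd3e. Of the same genes the control libraries averaged 1.47, 0.64 and 1.40 TPM. None of 96 groups of values, tested for a library far from the others by Dixon's criterion, held one past the 95% limit, where chance gives about 1 in 20. That count says nothing of Cd79a, Cd8a and Cd3e in combination replicate 5, which lay far from the other combination libraries in these genes.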

How the results depend on the processing

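The count of 0 genes passing held under 12 of 13 settings other than leaving out 1 library, with smallest adjusted p from 0.0698 (library number as a replicate block, which changed no call) to 0.797 (title number as a replicate block). The exception was the tissue covariates, which gave 43. Leaving out 1 library in turn gave 0 to 1 gene. The 1 gene, without combination replicate 6, was Trbv3, a T cell receptor segment of the kind the choice of libraries used, so it counts as no test. The count at an unadjusted p under 0.05 depended on single libraries. Higher genes numbered 460 and 573 without combination replicates 2 and 3, and 455 and 600 without butyrate replicates 1 and 4. Lower genes numbered 43, 116 and 126 without butyrate replicates 4, 5 and 6. With combination replicate 5 kept, 2215 were higher and 150 lower, and the T cell, B cell and skeletal muscle medians were 1.67, 1.57 and -1.83. The interaction had 0 genes except with library weights, which gave 10747, and those weights ran from 0.1165 for propionate replicate 3 to 6.2 for propionate replicate 5. The mitochondrial share differed by -6.39 to -4.69 without single libraries and lost its call without the pieces rich in Wt1 (-4.51).

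Small differences turned below 0 with another scaling, and the cause was not tested beyond the shift of all genes from 0.23. In pairs of values, median-of-ratios scaling before quantile normalization, Psmb5 was at -0.069 and -0.037, Psmb7 at -0.18 and -0.14, Slc16a1 at -0.00043 and -0.025, Hadh at -0.013 and -0.0097, Hdac5 at -0.053 and -0.042, Cdkn1a at -0.16 and -0.17 and Il15 at -0.11 and -0.12. Median-of-ratios scaling alone turned Psmb6 (-0.017) and Bsg (-0.048), and quantile normalization alone Mmab (-0.030). Psmb7 was at -0.011 with combination replicate 5. Cdkn1a ranged from -0.011 to 0.19 and Wt1 from -0.18 to 1.39 without single libraries. Wt1 was also at -0.19 with combination replicate 5, -0.14 with library weights, -0.52 with tissue covariates and -0.78 without the pieces rich in it. TPM with no depth leaves the precision of genes near 0 unknown.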
